A study of Saccharomyces cerevisiae with 6 samples.

Results

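The genes described here belong to the general machinery that starts transcription by RNA polymerase II in budding yeast. They encode subunits of TFIID and SAGA and of the basal factors TFIIA, TFIIB, TFIIE, TFIIF and TFIIH, though not every subunit. The 43 genes were taken from a list of these subunits by gene symbol, not by a cut on their values, though earlier results of these data were known. They make up 43 of the 5449 Saccharomyces cerevisiae genes on the array. Each of the 43 had 1 probe set, and none was at the background level in both groups. RNA came from cells grown in galactose medium lacking uracil that overexpressed either GST alone or Med3 fused to GST (labelled GST-med3). There were 3 biological replicates (A, B and C) per group and 1 Affymetrix Yeast Genome 2.0 Array per replicate. In both groups the protein was expressed from a plasmid under the galactose-induced GAL1/10 promoter, and RNA was taken after 48 h. GST cells therefore carry the same tag, plasmid type and carbon source as Med3-GST cells. The strains that the study lists with these plasmids all derive from BY4741, a MATa strain with deletions in HIS3, LEU2, MET15 and URA3. Each of them also has a tag on the chromosomal gene of a Mediator subunit, Flag on MED18 or GFP on MED3. Which of those strains was put on the arrays is not stated.

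At a promoter, the TATA-binding protein (TBP, encoded by SPT15) bends the DNA and is joined by TFIIA and TFIIB, then by TFIIF with the polymerase, and by TFIIE and TFIIH, which opens the DNA. TBP is brought there by TFIID, in which it is held by the TBP-associated factors (TAFs), or with the help of SAGA, a coactivator that also acetylates histones and removes ubiquitin from them. Several TAFs belong to both complexes. Mediator, of which Med3 is a tail subunit, links gene-specific activators to this machinery.

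MED3 itself, listed as PGD1, had log2 signals of 8.24, 8.01 and 8.07 on the GST arrays A, B and C, and of 11.85, 11.73 and 11.84 on the Med3-GST arrays, a 13.0-fold difference. The groups lay far apart in the direction of the labels, and transcripts of the plasmid and of the chromosomal gene cannot be told apart. The galactose genes GAL1, GAL7 and GAL10 had mean log2 signals between 13.48 and 13.65 in both groups. Among genes of the MATa mating type, STE2 was at 12.37 in GST cells, whereas MF(ALPHA)1 and MF(ALPHA)2, genes of the other type, were at 6.64 and 6.61, below a log2 signal of 7.50, which 95% of the probe sets for S. pombe, absent from these cells, did not exceed. STE3, also a gene of the other type, was above that level at 8.41. With Med3-GST these 3 genes of the other type were at 6.88, 6.90 and 7.95, and the MATa genes MFA1 and MFA2 were higher by 0.70 and 0.52 on the log2 scale. URA3, for which the medium selects, had a mean log2 signal of 13.87 with GST and 13.59 with Med3-GST, and the groups did not overlap. Its log2 difference was -0.27 as deposited and -0.18 after centring each array on its median. The part of these markers in the differences below was not tested. Array medians ran from 9.99 to 10.08 with GST and from 9.87 to 9.99 with Med3-GST, so that the median log2 difference over all 5498 probe sets, Med3-GST minus GST, was -0.085 as deposited. This offset is about as large as many of the differences below. Each difference is therefore given as deposited and, where it matters, after centring each array on its own median, which adds 0.10 or slightly less to every difference. Fewer cells with a transcript and less of it per cell cannot be told apart in these data.

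Differences among the 43 genes were small, and most of them were decreases. None reached 2-fold, a size seen in 1.84% of all probe sets, and 2 genes, TAF8 and SPT7, had a log2 difference of at least 0.5 in size, which 15.5% of all probe sets had. In a two-sided limma test, with p-values adjusted over all 5498 probe sets (Benjamini-Hochberg) and a threshold of 0.05, 27 genes were lower with Med3-GST, 6 were higher and 10 did not pass the test. In the background, 47.8% of all probe sets were lower and 27.1% higher as deposited. After centring, 25 of the 43 were lower and 11 higher, against 41.7% and 43.6% of all probe sets. The 25 lower genes were all among the 27 called as deposited, and all 6 higher genes were called higher again. The median log2 difference of the 43 genes was -0.22, against -0.08 over all probe sets, and it was -0.12 against 0.01 after centring. Groups did not overlap for 31 of the 43 genes as deposited and for 36 after centring, against 75.0% and 85.4% of all probe sets.

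**Figure D1:**
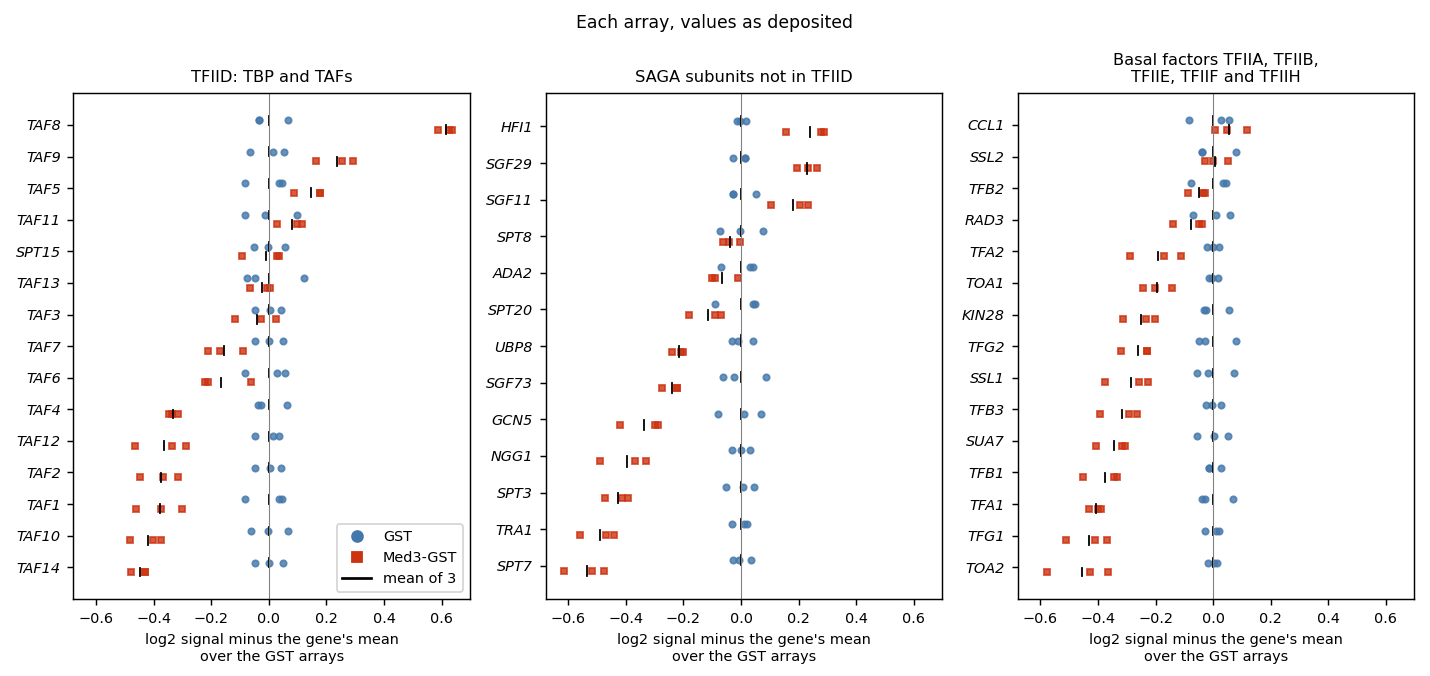
Log2 signal of each array minus the mean of the 3 GST arrays for the same gene (x axis), for 15 TFIID genes, 13 SAGA genes and 15 genes of the basal factors, values as deposited. Blue circles are GST arrays, red squares Med3-GST arrays and black ticks the mean of 3. TAF8 stands to the right of all other genes, and no basal factor has its Med3-GST arrays wholly to the right of its GST arrays.

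Among the 15 genes of TFIID, 8 fell, 3 rose and 4 did not pass the test as deposited (7, 6 and 2 after centring), close to the 47.8% lower and 27.1% higher of all probe sets as deposited and the 41.7% and 43.6% after centring. SPT15, the gene for TBP, had log2 signals of 11.46, 11.35 and 11.40 with GST and of 11.44, 11.31 and 11.43 with Med3-GST. The groups overlapped, and the log2 difference of -0.01 ± 0.05 (SE) did not pass the test. After centring, the difference was 0.08 ± 0.02 and did pass (adjusted p = 0.00272 from limma), so that its sign depends on the scaling.

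The largest difference of any of the 43 genes was in TAF8, a subunit of TFIID that is not in SAGA and that pairs with Taf10 through a histone fold. Its log2 signal was 8.39, 8.29 and 8.29 on the GST arrays and 8.95, 8.91 and 8.96 on the Med3-GST arrays. Every Med3-GST array was above every GST array, with a log2 difference of 0.62 ± 0.05 (SE), a 1.53-fold increase that ranks at the 96.1 percentile of all probe sets. It was 0.71 ± 0.03 after centring (adjusted p = 5.27e-11 from limma).

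TAF9 and TAF5 were the other TFIID genes that rose, and both encode subunits shared with SAGA. TAF9, whose product forms a histone-fold pair with Taf6, went from 10.26, 10.14 and 10.22 to 10.46, 10.37 and 10.50. The groups did not overlap, and the log2 difference was 0.24 as deposited and 0.33 after centring. TAF5, a scaffold subunit with WD40 repeats, rose by 0.15 as deposited and by 0.24 after centring. Without GST replicate B its difference was 0.11 and no longer passed the test as deposited.

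The TFIID genes that fell include the gene for its large scaffold. TAF1 had log2 signals of 10.02, 9.90 and 10.03 with GST and 9.61, 9.52 and 9.68 with Med3-GST, and the groups did not overlap. Its log2 difference was -0.38 ± 0.05 (SE) as deposited and -0.29 ± 0.03 after centring. TAF2, which contacts promoter DNA, TAF4, and TAF12, which pairs with both Taf4 and the SAGA subunit Hfi1, fell by 0.37, 0.33 and 0.37 on the log2 scale. TAF10, which is shared with SAGA, fell by 0.42 and stayed lower after centring, at -0.32.

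TAF14 showed the largest decrease of the TAF genes. It encodes a small YEATS-domain protein that is found in TFIID, in TFIIF and in several chromatin complexes. Its log2 signals of 10.49, 10.39 and 10.44 with GST fell to 10.01, 9.96 and 10.01 with Med3-GST, without overlap. The log2 difference was -0.45 as deposited and -0.35 after centring.

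TAF6 and TAF7, the latter encoding a partner of Taf1, had smaller differences of -0.17 and -0.16. Both passed as deposited, and for TAF6 the groups overlapped. After centring TAF6 (-0.07) did not pass and TAF7 (-0.06) did, though not without GST replicate C (-0.06) or Med3-GST replicate A (-0.04). TAF3, TAF11 and TAF13, with -0.04, 0.08 and -0.03, did not pass as deposited. The products of TAF11 and TAF13 form the pair that contacts TBP within TFIID. After centring, TAF11 was higher (0.18) and so was TAF3 (0.06), whereas TAF13 (0.07) still did not pass. TAF3 no longer passed after centring without GST replicate A (0.05), GST replicate C (0.06) or Med3-GST replicate C (0.05). TAF11 also passed as deposited without GST replicate A, at 0.13, and without Med3-GST replicate B, at 0.11.

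**Figure D2:**
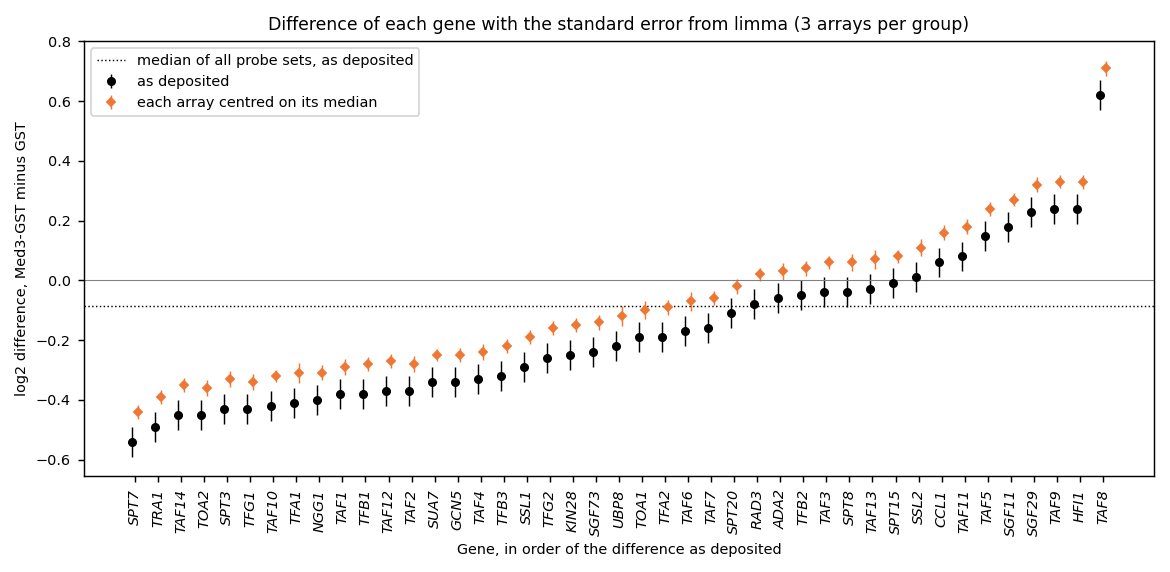
Log2 difference, Med3-GST minus GST (y axis), of each of the 43 genes in order of size (x axis), as deposited (black circles) and after centring each array on its median (orange diamonds), with the standard error from limma as bars. The dotted line is the median of all probe sets as deposited, -0.085. The values run from -0.54 for SPT7 to 0.62 for TAF8, and genes between RAD3 and SPT15 in this order lie below 0 as deposited and above 0 after centring.

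SAGA has separate parts for structure and TBP delivery, for acetylation, for deubiquitination and for contact with activators. Of the 13 SAGA subunits described here that are not in TFIID, 8 fell, 3 rose and 2 did not pass as deposited (7, 3 and 3 after centring). Their median log2 difference was -0.22 as deposited and -0.12 after centring. With the 5 shared TAFs added, 11 of 18 genes fell and 5 rose as deposited, and 9 were lower and 5 higher after centring. Of all probe sets, 47.8% were lower and 27.1% higher as deposited, and 41.7% and 43.6% after centring.

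SPT7 had the largest decrease of all 43 genes. It encodes a structural subunit of SAGA with a bromodomain. Its log2 signals were 10.23, 10.17 and 10.19 with GST and 9.72, 9.58 and 9.68 with Med3-GST. The groups lay well apart, with a log2 difference of -0.54 ± 0.05 (SE), a 1.45-fold decrease, and -0.44 ± 0.02 after centring (adjusted p = 1.61e-09 from limma).

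TRA1, the gene for the very large subunit that activators bind, came next. It had 10.40, 10.36 and 10.41 with GST and 9.92, 9.83 and 9.95 with Med3-GST, again without overlap. The log2 difference was -0.49 as deposited and -0.39 after centring. SPT3, whose product helps to deliver TBP, fell by 0.43. SPT8, which acts with Spt3 on TBP, did not pass the test, with -0.04 as deposited and 0.06 after centring.

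HFI1, also called ADA1, ran the other way within the structural part of SAGA. Its log2 signal of 8.96, 8.93 and 8.94 with GST went to 9.23, 9.10 and 9.22 with Med3-GST. All Med3-GST arrays were above all GST arrays, by 0.24 on the log2 scale as deposited and 0.33 after centring. SPT20, which is needed for the integrity of the complex, had -0.11 as deposited. It passed the test with all arrays but not without GST replicate A (-0.09), GST replicate C (-0.09), Med3-GST replicate A (-0.12) or Med3-GST replicate B (-0.08), and it did not pass after centring (-0.02).

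In the acetyltransferase part, the catalytic subunit GCN5 had log2 signals of 9.91, 9.76 and 9.85 with GST and 9.54, 9.42 and 9.55 with Med3-GST. The groups did not overlap, and the log2 difference was -0.34 as deposited and -0.25 after centring. NGG1, also called ADA3, fell by 0.40 as deposited, and ADA2, whose product binds Gcn5 directly, had -0.06 and did not pass under either scaling. SGF29, which reads methylated histone H3, rose instead. Its log2 signals went from 7.71, 7.67 and 7.71 to 7.93, 7.89 and 7.96, with a log2 difference of 0.23 as deposited and 0.32 after centring. SGF29 was the dimmest of the 43 genes, close to the S. pombe level of 7.50, and its difference was 0.43 when a background, the median signal of the S. pombe probe sets, was taken off first.

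The deubiquitinase part also went both ways. SGF73, which anchors this part to SAGA, and UBP8, the ubiquitin protease, had log2 differences of -0.24 and -0.22, with lower signals on every Med3-GST array. SGF11, which activates Ubp8, went from 9.47, 9.39 and 9.39 with GST to 9.62, 9.52 and 9.65 with Med3-GST. The groups did not overlap, and the log2 difference was 0.18 as deposited and 0.27 after centring. SUS1, a subunit of this part outside the list, had a log2 difference of -0.58 as deposited and -0.48 after centring.

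Among the 15 genes of the basal factors described here, 11 fell, none rose and 4 did not pass as deposited. After centring, the same 11 were lower, 2 were higher and 2 did not pass. All 7 genes of TFIIA, TFIIB, TFIIE and TFIIF fell under both scalings, with log2 differences from -0.45 to -0.19 as deposited and from -0.36 to -0.09 after centring. Their median was -0.34 as deposited and -0.25 after centring. Since 47.8% of all probe sets were lower as deposited and 41.7% after centring, and since these are 7 genes, this is a description of the list and no test of it.

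TOA2, the small subunit of TFIIA, which steadies TBP on DNA, had log2 signals of 11.29, 11.26 and 11.28 with GST and 10.85, 10.70 and 10.91 with Med3-GST. The decrease of 0.45 on the log2 scale was clear of the spread within either group. TFG1, the largest subunit of TFIIF, which accompanies the polymerase to the promoter, had 10.54, 10.53 and 10.49 with GST and 10.11, 10.01 and 10.15 with Med3-GST, a log2 difference of -0.43. SUA7, the gene for TFIIB, which connects TBP with the polymerase, had 11.86, 11.75 and 11.81 with GST and 11.50, 11.40 and 11.49 with Med3-GST. Again every Med3-GST array was below every GST array, with a log2 difference of -0.34 as deposited and -0.25 after centring.

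Within each of the factors made of several subunits the sizes were unequal. TOA1, the large TFIIA subunit, fell by 0.19, less than TOA2. TFA1 and TFA2, the subunits of TFIIE, which recruits TFIIH, fell by 0.41 and 0.19. TFG2, the second largest TFIIF subunit, fell by 0.26.

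TFIIH holds the DNA translocase and helicase that serve both transcription and nucleotide excision repair, and a kinase that phosphorylates the tail of the polymerase. Of the 8 TFIIH genes described here, 4 fell, none rose and 4 did not pass as deposited. After centring, 4 were lower and 2 higher. The shares over all probe sets were 47.8% lower and 27.1% higher as deposited, and 41.7% and 43.6% after centring. TFB4 and TFB5, TFIIH subunits outside this list, also fell, by 0.20 and 0.37 on the log2 scale as deposited. SSL2, the translocase that opens the promoter, had log2 signals of 9.78, 9.66 and 9.66 with GST and 9.75, 9.67 and 9.70 with Med3-GST. The groups overlapped, with a log2 difference of 0.01 that did not pass as deposited and of 0.11 that did after centring. RAD3, the repair helicase, had -0.08 as deposited and 0.02 after centring and did not pass under either scaling, and neither did TFB2, with -0.05 and 0.04. The structural subunit genes TFB1 and SSL1 fell by 0.38 and 0.29.

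In the kinase part, KIN28, the kinase itself, had 10.29, 10.21 and 10.20 with GST and 10.03, 9.92 and 10 with Med3-GST. The groups did not overlap, and the log2 difference was -0.25 as deposited and -0.15 after centring. TFB3, which holds the kinase to the rest of TFIIH, fell by 0.32. CCL1, the cyclin of Kin28, did not pass as deposited (0.06) but was higher after centring (0.16).

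Subunits that bind each other directly were also compared as pairs. The gap between the log2 signals of 2 partners on 1 array does not depend on the offset of that array, so its shift between the groups is the same with and without centring. It shows unequal change, not which partner changed. The 15 pairs were chosen from known contacts after the values had been seen, and their shifts are given without a test. The gap of TAF8 over TAF10 was wider by 1.03 ± 0.03 (log2, SE, n = 3 per group) with Med3-GST. Relative to the mean gap with GST it stood at 1.03, 1.07 and 1.01 on the Med3-GST arrays, against 0.00, 0.04 and -0.04 on the GST arrays.

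TAF10 has other partners besides TAF8. The gap of TAF3 over TAF10 was wider by 0.38 ± 0.02, whereas that of SPT7, its partner in SAGA, over TAF10 shifted by -0.12 ± 0.03, since both fell. TAF12 likewise serves both complexes. The gap of HFI1, its SAGA partner, over TAF12 was wider by 0.60 ± 0.03, whereas that of TAF4, its TFIID partner, shifted by 0.03 ± 0.05 with overlapping groups. The gap of TAF6 over TAF9 shifted by -0.40 ± 0.04, that of UBP8 over SGF11 by -0.39 ± 0.05, that of KIN28 over CCL1 by -0.31 ± 0.04 and that of GCN5 over ADA2 by -0.28 ± 0.04. Within TFIIA the gap of TOA1 over TOA2 shifted by 0.26 ± 0.04. In all, 8 of the 15 pairs shifted by more than 0.25 in size, which 58.7% of all possible pairs of probe sets and 46.2% of the 903 pairs among the 43 genes did. For 14 of the 15 the gaps of the groups did not overlap, against 86.1% of all pairs of probe sets and 82.7% of pairs among the 43 genes. These counts therefore do not set partner subunits apart from other pairs.

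**Figure D3:**
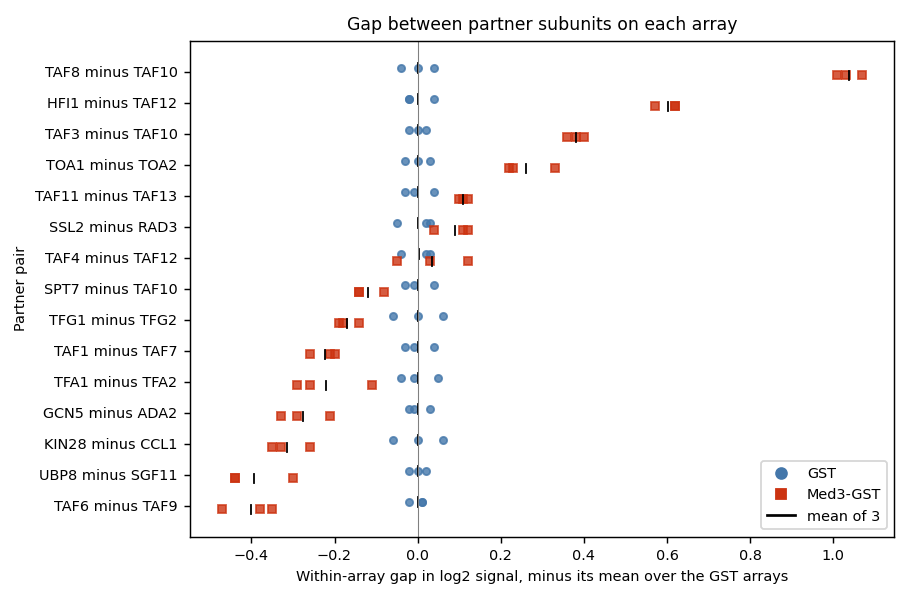
Gap in log2 signal between partner subunits on each array, minus its mean over the GST arrays (x axis), for 15 pairs (y axis). Blue circles are GST arrays, red squares Med3-GST arrays and black ticks the mean of 3. The gap of TAF8 over TAF10 shifted the most, by 1.03, and TAF4 over TAF12 is the pair whose groups overlap.

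Among the 43 genes, those with brighter probe sets tended to have the lower differences. Spearman's rho between mean log2 signal and log2 difference was -0.53 across the 43 genes and -0.06 across all 5498 probe sets, and -0.48 and 0.00091 after quantile normalization. These are correlations across genes, which are not independent replicates and share the 6 arrays, and they are given as a description. The 15 genes with a signal between 10 and 11 had a median log2 difference of -0.33, where all 1342 probe sets in that range had -0.15. The 19 genes with a signal between 9 and 10 had -0.06, against -0.11 for all 1455 probe sets. The 4 genes between 8 and 9, of which TAF7, SPT8 and SPT20 lie below 0 and TAF8 above, had -0.07, against -0.08 for all 772 probe sets. The 4 genes over 11 had -0.38, against -0.08 for 1372 probe sets. Signals of different probe sets also differ by how well their probes bind, so that this order is not an order of transcript levels.

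**Figure D4:**
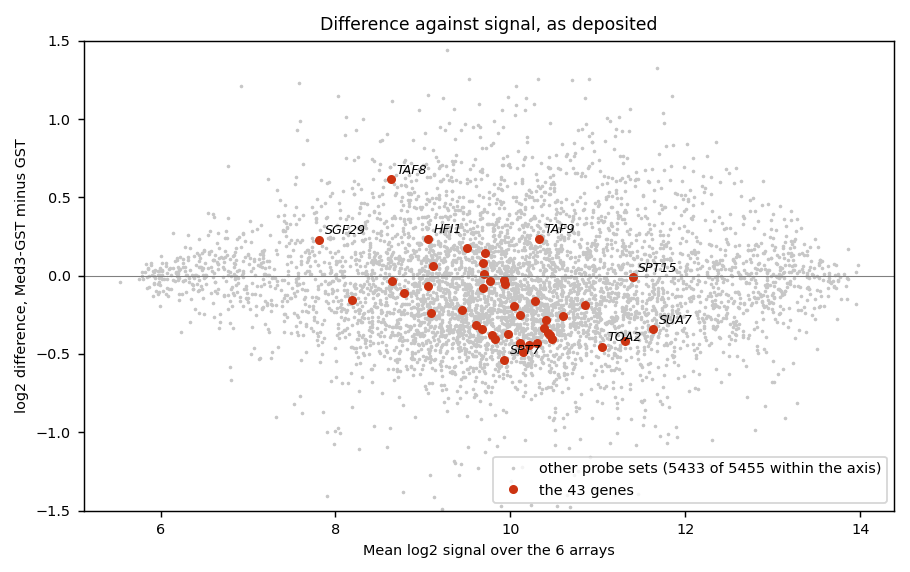
Log2 difference, Med3-GST minus GST (y axis), against the mean log2 signal over the 6 arrays (x axis) for the 43 genes (red) and for 5433 of the 5455 other probe sets that lie within the axis (grey), values as deposited. TAF8, SGF29 and HFI1 are among several of the 43 genes that lie above 0 at signals under 10, where others lie below 0. TOA2 and SUA7 lie below 0 at signals over 11.

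Genes of related complexes, listed from background knowledge with earlier results of these data known, were read against the same background, in which 47.8% of all probe sets were lower and 27.1% higher as deposited (41.7% and 43.6% after centring). Of 7 related subunits, 5 fell and 1 rose as deposited (5 and 2 after centring). The largest decrease was in SUS1, shared by the SAGA deubiquitinase and the mRNA export machinery, with -0.58, and the increase was in AHC1, a subunit of the smaller ADA acetyltransferase complex, with 0.32. TFB4 and TFB5, the TFIIH subunits not among the 43, fell by 0.20 and 0.37. Of 12 TBP regulators, TBP partners at other polymerases and SPT genes, 6 fell and 1 rose as deposited (4 and 3 after centring). Here SPT6, a histone chaperone of elongation, fell by 0.54 and RRN11, a subunit of the RNA polymerase I core factor, rose by 0.57. MOT1, which removes TBP from DNA, fell by 0.28, and the subunits of the TBP inhibitor NC2, BUR6 and NCB2, had -0.05 and -0.06 and did not pass.

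NuA4, an acetyltransferase complex that contains Tra1, had 8 of 12 genes lower and 2 higher as deposited (6 and 3 after centring), with -0.57 for ARP4 and 0.39 for EPL1 at the ends. Of 15 genes of other complexes that contain Taf14, 9 were lower and 3 higher as deposited (6 and 3 after centring), from -0.52 for SWP82 to 0.26 for ARP7, both subunits of SWI/SNF-type remodelling complexes. The median log2 difference was -0.23 for the 7 related subunits and -0.18 for NuA4 as deposited, and -0.14 and -0.08 after centring. It was -0.10 for the TBP list and -0.11 for the complexes with Taf14, next to the -0.08 of all probe sets, and -0.01 for each of these 2 lists after centring.

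The position of the genes was also compared with that of their neighbours in assembly R64. For 29 of the 43 genes, the neighbour on the side of the start is transcribed away from it and was measured, so that both share the stretch between them. In 15 of the 29 such pairs both differences had the same sign as deposited (51.7%), and in 12 after centring (41.4%). Over all 1211 such pairs of neighbours measured, these shares were 54.3% and 52.8%. TAF8 lies next to DAT1, which encodes a protein that binds runs of A and T, and DAT1 was higher by 0.87 as deposited and 0.96 after centring. In contrast, TRA1 fell while its neighbour SFB3 rose by 0.44, and TAF12 fell while MKC7 rose by 0.44.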

How the data were processed

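The values deposited by the authors are log10 signals of probe sets, since 10 raised to each value has at most 2 decimals in 100% of cells. They state normalization within each experiment in ArrayStar. Background correction, probe summary and the kind of normalization are not stated in the labels or methods. Values were multiplied to log2 and used without further scaling. Of 10928 probe sets, the 5498 annotated to S. cerevisiae genes were tested, 1747 for S. pombe served as background, and 3683 with no listed gene were left out. Symbols were matched to assembly R64, which updated 12.

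Groups, taken from the overexpression label, were compared two-sided by lmFit and eBayes of limma 3.58.1 under R 4.3.3, with neither trend nor block. Benjamini-Hochberg adjustment ran over 5498 probe sets, and the threshold was 0.05. As deposited, limma found no variation in spread beyond sampling and gave every probe set the standard error 0.05. That standard error includes the offsets shared by all probe sets of an array, and the calls as deposited rest on it. After centring, the median standard error was 0.0243 with 7.97 prior degrees of freedom. Adjusted p-values are therefore printed after centring. The number of arrays limits the precision, and exact permutation of 3 against 3 arrays, whose smallest p is 0.1, was not used. The procedure was also run on simulated data with the same spread for all probe sets and no offset between groups. The offset between groups that these data have was not simulated.

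The 43 genes, the lists and the alternatives were chosen with earlier results of these data known. Values of every array are given for the 5 largest rises and falls past the test without overlap and for SPT15, TAF1, GCN5, TRA1, SUA7, SSL2 and KIN28. Further lists are named by their largest rise and fall. TFB4, TFB5, MOT1, BUR6, NCB2, DAT1, SFB3 and MKC7 were named after their values were seen, and the partner pairs, the neighbours and the signal ranges were chosen after values were seen. Alternatives were centring, quantile normalization, background subtraction (median S. pombe signal, floor of 16 units) with centring, a trend, array weights, the replicate block, a filter on dim probe sets, the mean of probe sets, an adjusted p under 0.01 and leaving out each array. Sequence features were not analysed here.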

Additional observations from a re-analysis of the deposited data

How the results depend on the processing

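Of the 43 genes, 29 kept their direction and side of the threshold under all 22 alternatives, 24 of them lower and 5 higher. Over all probe sets, calls were counted only as deposited and after centring, so this number and those below do not set the 43 apart. The number of genes higher was 6 as deposited, but 11 after centring, after quantile normalization, after background subtraction with centring and with array weights, whose estimate did not fully converge, and 12 with the replicate block and centred arrays. Leaving out 1 array gave 5 to 12, where the alternatives that also centre the arrays were added after seeing the data. The number lower stayed between 24 and 30. The median over the 43 genes, -0.22 as deposited, was -0.12 after centring, with and without the replicate block, -0.13 after quantile normalization and -0.14 after background subtraction, and -0.23 to -0.10 when 1 array was left out. Centring adds about 0.10 to each difference and gave a smaller standard error, with a median of 0.0243 against 0.05 as deposited. The part of each in the higher number was not tested.

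With the replicate letter as a block, as deposited, 7 genes were higher and 28 lower. Whether arrays of the same letter are paired is not stated and was not settled here. Deviations of same-letter arrays from their group means correlated at 0.03 to 0.06. Each GST array correlated best with the Med3-GST array of its own letter (3 of 3). These correlations cannot show an offset shared by a whole array. Array medians were lowest for letter B in both groups, at 9.99 with GST and 9.87 with Med3-GST.

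Of the 9 genes that changed sign under some alternative, SPT20 had passed the test as deposited and the others had not. SPT15 was 0.08 after centring, after quantile normalization and with the block and centring, 0.09 after background subtraction and 0.04 with array weights. TAF13 was 0.07 under the first 4 of these and 0.04 with array weights, and TAF3 was 0.06 under the first 4. RAD3 was 0.02 under all of them run with centring and 0.03 after quantile normalization. TFB2 was 0.04 after centring, with and without the block, and 0.05 after quantile normalization and background subtraction. ADA2 was 0.03 and SPT8 0.06 after centring, with and without the block, and after background subtraction. When 1 array was left out, the range was -0.04 to 0.09 for SPT15, -0.06 to 0.11 for TAF13, -0.07 to 0.06 for TAF3, -0.11 to 0.02 for RAD3, -0.09 to 0.06 for TFB2, -0.10 to 0.06 for ADA2, -0.07 to 0.09 for SPT8, -0.01 to 0.13 for SSL2 and -0.16 to 0.01 for SPT20. Dim probe sets limit the size of differences, and that of TAF8 was 0.84 after background subtraction.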
